A study of Caenorhabditis elegans with 2 samples.

Results

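The tRNA genes of the Caenorhabditis elegans X chromosome were examined for binding of the tagged transcription factor APTF-3. Every gene annotated as a tRNA on chromosome X of WBcel235 (ce11) was taken, which gave 276 of the 46926 annotated genes, and the 336 tRNA genes of the autosomes were set beside them. The genes were picked by annotation alone, without a measured value, but this rule was chosen with earlier results of these data known. X held 45.1% of the 612 nuclear tRNA genes on 17.7% of the nuclear genome.

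Binding was measured by ChIP-seq, in which DNA that co-precipitates with a protein is sequenced, in whole young adult worms at 64 h of 1 strain, OP765. These animals carry the transgene wgIs765, which holds aptf-3 fused to TY1, EGFP and 3xFLAG together with unc-119(+), in an unc-119(tm4063) background. The worms had been synchronised as starved L1 larvae, and the immunoprecipitation was made with an anti-GFP antibody. There was 1 group of 2 biological replicates and no second condition. The labels name no change to the endogenous aptf-3 gene, so the animals may hold untagged protein beside the tagged one, and whole animals give no tissue for a peak. A control signal was not analysed here.

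APTF-3 belongs to the AP-2 family, transcription factors that bind palindromic GC-rich DNA and act in epidermal and neural development in many animals. Transfer RNAs carry amino acids to the ribosome. The amino acid a tRNA carries is called its isotype, and its anticodon reads the codon in the messenger RNA. tRNA genes are transcribed by RNA polymerase III. TFIIIC binds the A box and the B box, control elements that lie inside the transcribed sequence, and helps TFIIIB to bind just upstream of the gene and recruit the polymerase. A run of T after the gene ends transcription. In the nematode genome tRNA genes are short, scattered, often identical in sequence, and many lie in introns of protein-coding genes.

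A gene was counted as having a summit where the highest point of a peak lay within 100 bp of the gene. The series' IDR thresholded list, called the main list, held 785 peaks, and a second series list, called the conservative list, held 675. IDR, the irreproducible discovery rate, grades a peak by how well its rank repeats between 2 inputs. The replicates' own thresholded lists held 178 peaks in replicate 1 and 241 in replicate 2. The larger series ranked list held 99784 peaks, strong and weak together, and the highest signal within 100 bp was read from it for each gene. Signal means the value that the authors gave each peak; its scale is not defined in the labels or file list, and the number of reads is unknown. Peak lists of 1 group allow no test over samples, so what follows is description. Intervals are exact Clopper-Pearson 95% intervals over genes, cover counting error only, and treat genes as independent although some share a peak.

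The strongest peak at a tRNA gene of X spanned a pair of alanine tRNA genes, and its sequence is shown because both genes and the space between them lie within a single peak. It covers chrX:9743569-9743864 on the plus strand (ce11, RefSeq genome), 296 bases, with F15G9.t1 and then F15G9.t2 in capitals.
F15G9.t1 and F15G9.t2: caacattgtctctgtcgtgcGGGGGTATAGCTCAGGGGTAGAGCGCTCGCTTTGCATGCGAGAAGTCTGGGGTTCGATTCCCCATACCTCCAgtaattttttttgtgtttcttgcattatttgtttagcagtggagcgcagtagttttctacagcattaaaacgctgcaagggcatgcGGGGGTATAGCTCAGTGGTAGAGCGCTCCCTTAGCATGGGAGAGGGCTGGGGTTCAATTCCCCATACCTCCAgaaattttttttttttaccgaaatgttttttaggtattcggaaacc
The genes are 86 bp apart and the same in 65 of 72 bases. The peak lies in an intron of him-4, a gene of the extracellular matrix, and both tRNA genes are on the strand of him-4.

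The next sequences are those of other X genes with strong summits, with the A box and B box in capitals, to show the internal control elements beside the signals given below. All are written 5′ to 3′ on the gene's own strand, with RefSeq coordinates of ce11. C02B4.t2 (chrX:12665228-12665311, plus) is a tyrosine gene with an intron. C33G3.t2 (chrX:14063946-14064018, minus) is a lysine gene. C04A11.t1 (chrX:13665555-13665673, plus) is a leucine gene with an intron and has no identical copy in the genome. R04A9.t1 (chrX:410391-410462, plus) is a glutamine gene. C18A11.t2 (chrX:8036685-8036757, minus) is an arginine gene outside the main list.
C02B4.t2: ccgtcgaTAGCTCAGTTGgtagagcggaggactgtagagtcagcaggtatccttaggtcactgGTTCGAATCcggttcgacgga
C33G3.t2: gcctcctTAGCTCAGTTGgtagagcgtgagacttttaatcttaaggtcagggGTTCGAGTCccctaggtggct
C04A11.t1: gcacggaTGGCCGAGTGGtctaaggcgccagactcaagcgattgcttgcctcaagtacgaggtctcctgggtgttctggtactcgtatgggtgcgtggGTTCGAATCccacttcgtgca
R04A9.t1: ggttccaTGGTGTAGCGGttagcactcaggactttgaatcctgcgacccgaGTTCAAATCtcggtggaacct
C18A11.t2: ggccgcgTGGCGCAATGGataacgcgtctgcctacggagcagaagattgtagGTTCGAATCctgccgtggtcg

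In the main list 69 of the 276 X tRNA genes had a summit within 100 bp, or 25% (20 to 30.5), at 66 distinct summits. On the autosomes 64 of 336 tRNA genes had a summit, or 19% (15 to 23.7). Over all annotated genes the share was 1.76%, and consecutive X windows of 272 bp, the length of a gene of median size with its flanks, held a summit in 0.193%. The share at X tRNA genes was thus many times that of annotated genes, as was the share at autosomal tRNA genes. The shares of single autosomes ran between 14% on chromosome II and 26.6% on chromosome III, so X lay within their range. The difference of 5.95 percentage points between X and the autosomes was not tested. Among genes whose sequence occurs at a single place in the genome it had the other sign, -2.57 points. There 7 of 55 X genes (12.7%) and 13 of 85 autosomal genes (15.3%) had a summit. The replicates' own lists did not show this sign. Each held 3 of the 55 X genes (5.45%), beside 4 autosomal genes (4.71%) in replicate 1 and 1 (1.18%) in replicate 2.

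With all tRNA genes counted, X was above the autosomes in the other thresholded lists too. In the conservative list 63 X genes (22.8%) and 60 autosomal genes (17.9%) had a summit, with 1.59% over all annotated genes. The conservative list was not a subset of the main list, since 57 X genes were in both, 12 in the main list only and 6 in the conservative list only. In replicate 1 there were 18 X genes (6.52%) and 12 autosomal genes (3.57%), with 0.45% over all annotated genes and 0.043% of X windows. In replicate 2 there were 33 X genes (12%) and 18 autosomal genes (5.36%), with 0.614% over all annotated genes and 0.0691% of X windows. The ranked list had a summit within 100 bp of 212 X genes (76.8%) and 252 autosomal genes (75%), against 48.4% of all annotated genes and 23.5% of X windows. The highest ranked signal had a median of 53.9 at the X genes and 48.0 at the autosomal genes that had one. The order of the shares was not the same in all ranked lists. X was lower in the other series ranked list, with 74.3% against 75.3% of autosomal genes, and in that of replicate 1, with 65.6% against 71.1%. In the ranked list of replicate 2 X was higher, with 72.1% against 70.8%.

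**Figure D1:**
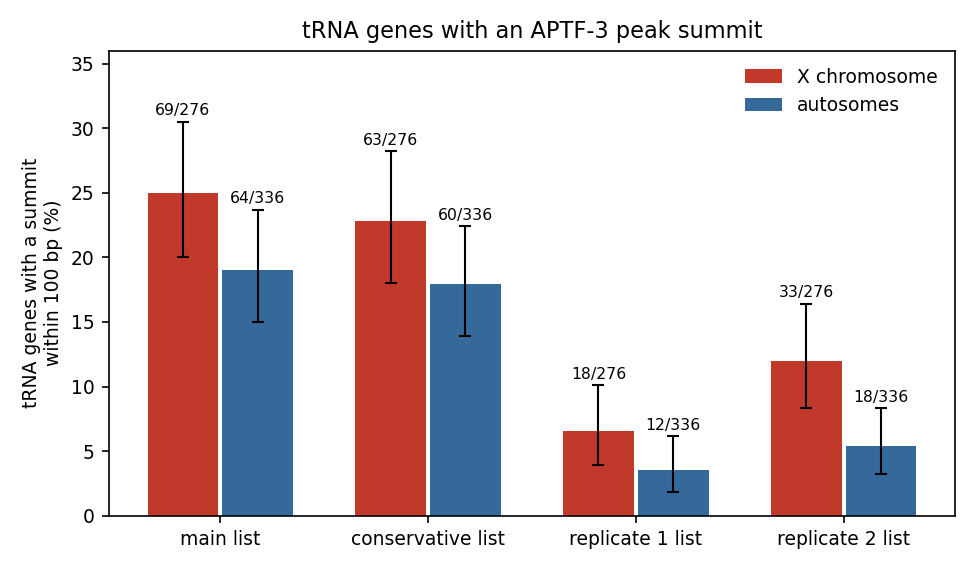
Share of tRNA genes (%) with a peak summit within 100 bp in 4 thresholded lists, for X and for the autosomes together; bars are shares, error bars exact 95% intervals over genes, and the fractions give genes with a summit over all genes. X has 69 of 276 genes in the main list and the autosomes 64 of 336, and the intervals of X and the autosomes overlap in 3 of the lists; in the list of replicate 2 the interval of X begins at 8.37% and that of the autosomes ends at 8.33%.

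Seen from the peaks, tRNA genes made up a large part of what the main list held on X. Of 128 main-list peaks on X, 66 (51.6%) had their summit within 100 bp of a tRNA gene, against 58 of 657 (8.83%) on the autosomes. The counts at tRNA genes, 66 and 58, were much closer than the totals of 128 and 657. X also holds 45.1% of the nuclear tRNA genes on 17.7% of the genome, so these shares do not compare binding per gene. The 66 X peaks had a median signal of 80.7, and the other X peaks one of 73.3. On the autosomes the corresponding medians were 85.2 and 76.2. Of the 66 X peaks, 14 also lay in a promoter window of a protein-coding gene and 52 did not. The signal of main-list summits had a median of 80.8 at the X genes (range 5.03 to 184.8) and of 83.9 at the autosomal genes.

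The replicates called different numbers of these genes and shared a part of them. A summit was within 100 bp of 10 X genes in both replicate lists, and all 10 were also in the main list. These were 55.6% of the replicate 1 genes and 30.3% of the replicate 2 genes. The overlap of the replicate lists over all annotated genes is not given here, so these shares cannot be called particular to tRNA genes. Of the 69 main-list genes, 34 had a summit in at least 1 replicate list and 35 in neither. Another 7 genes were in a replicate list and not in the main list, and 194 genes were in none of the 4 thresholded lists. In the replicates' ranked lists 155 X genes had a summit in both. Their signal had a median of 28.3 in replicate 1 and 31.6 in replicate 2, and was higher in replicate 2 at 101 of 155. Spearman's rho between the replicates over these 155 genes was 0.473, a description across genes that share 2 libraries. It was 0.151 over the 64 that were in the main list and 0.13 over the 91 that were not. The main list came from both replicates, so these sets were not chosen apart from the replicate data. Why rho was lower within them was not tested.

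**Figure D2:**
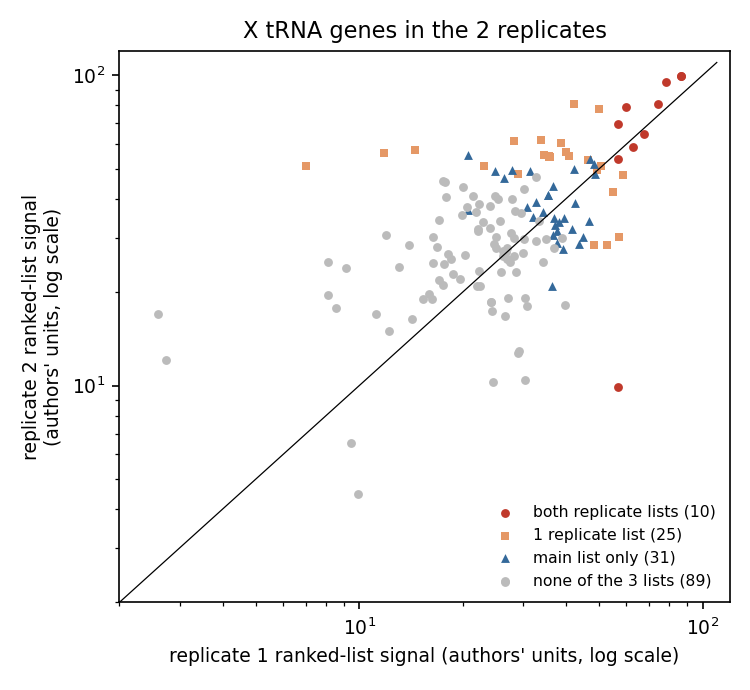
Ranked-list signal (authors' units, log scales) at the 155 X tRNA genes with a ranked summit in both replicates, replicate 1 across and replicate 2 up; the line marks equal values and colours give the thresholded lists that hold the gene. The genes in both replicate lists lie at the upper right except for T10B10.t1, whose nearest replicate 2 summit had a signal of 9.92.

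The F15G9 pair stood highest in both replicates. The shared summit of F15G9.t1 (alanine, anticodon UGC) and F15G9.t2 (alanine, AGC) had a signal of 184.8 in the main list, 86.8 in replicate 1 and 99.4 in replicate 2, and an IDR of 8.09e-05. It lay 30 bp upstream of F15G9.t2. C02B4.t2 (tyrosine, GUA), in an intron of the nuclear receptor gene nhr-17 on the opposite strand, had 173.3 in the main list, 78.4 in replicate 1 and 95.3 in replicate 2. M02F4.t1 (glycine, UCC; chrX:3036164-3036235, plus), outside any host intron, had 155.9, 74.4 and 80.7 in the main list, replicate 1 and replicate 2. C33G3.t2 (lysine, UUU) had 141.2 in the main list, 59.99 in replicate 1 and 79.0 in replicate 2. All of these were in both replicate lists, and each had a higher signal in replicate 2.

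The remaining genes found in both replicate lists had main-list signals between 111.5 and 129.2. F34H10.t1 (alanine, AGC; chrX:9637852-9637923, minus) had 129.2, with 67.5 in replicate 1 and 64.7 in replicate 2. T10B10.t1 and T10B10.t2 (glycine, UCC) are divergent neighbours that share a main-list summit of signal 124.5, which was 56.7 in replicate 1. In replicate 2 the summit nearest to T10B10.t2 had 69.9 and that nearest to T10B10.t1 had 9.92. The peaks of these summits overlap (chrX:15200754-15201043 and chrX:15200954-15201243). The stronger summit lay beyond 100 bp of T10B10.t1, so that gene is in the replicate 2 list through the weak summit alone. C04A11.t1 (leucine, CAA) had 120.5, with 62.6 in replicate 1 and 58.6 in replicate 2. F38G1.t2 (aspartate, GUC; chrX:489868-489939, minus), in an intron of the FGF gene egl-17 on the opposite strand, had 111.5, with 56.6 in replicate 1 and 53.7 in replicate 2.

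A pair of genes among the 10 strongest of the main list were in the list of replicate 2 and not in that of replicate 1. C28G1.t1 (glutamate, UUC; chrX:8836113-8836184, plus) had 131.5 in the main list, and its ranked signal was 49.9 in replicate 1 and 78.1 in replicate 2. R04A9.t1 (glutamine, UUG) had 121.7 in the main list, with 42.2 in replicate 1 and 80.8 in replicate 2. At both genes the replicates differed more than at the genes named before, apart from T10B10.t1.

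At the other end, 2 genes had main-list summits of low signal. F22F1.t3 (aspartate, GUC) had 5.03, with a ranked signal of 9.25 in replicate 2 and no ranked summit in replicate 1. F02D10.t2 (serine, GCU) had 9.44 at its nearest main-list summit, while the highest ranked summit within 100 bp had 69.7. Both were chosen after their values were seen. The IDR of the F22F1.t3 summit was 0.00675. Its peak (chrX:8154513-8154808) overlapped that of the F22F1.t2 summit (chrX:8154313-8154608), which had a signal of 70.2 and an IDR of 0.00677. The F02D10.t2 peak (chrX:13448866-13449161) overlapped that of the 69.7 summit (chrX:13448664-13448959). Whether these weak summits are separate from their stronger neighbours was not tested.

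Most of the nearest main-list summits fell inside the gene. In the main list 39 of 69 nearest summits (56.5%) fell inside the X tRNA gene, 20 upstream and 10 downstream. The median position was 23 bp after the gene's first base, the quartiles were -7 and 53, and the range was -79 to 147. At the autosomal genes 40 of 64 summits (62.5%) fell inside and the median was 30.5 bp. The A box begins at a median of base 8 and the B box at a median of base 52 of the X genes, and fragments were sonicated to 200 to 800 bp, so a summit cannot be assigned to either box. In the replicates' lists the median positions were 23.5 bp (18 genes, replicate 1) and 18 bp (33 genes, replicate 2).

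**Figure D3:**
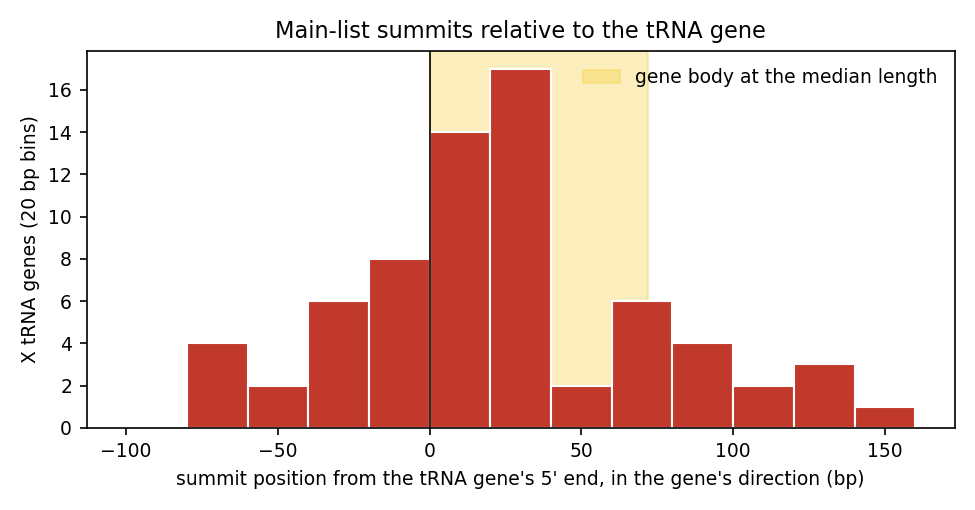
Number of X tRNA genes (20 bp bins) by position of the nearest main-list summit from the gene's 5′ end in bp, negative upstream; the shaded band is a gene of the median length, 72 bp. Of 69 summits 39 fall inside the gene, and the 2 highest bins lie in the band.

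The limit of 100 bp decided few genes. Inside it, the farthest were T10B10.t1 at 79 bp and Y7A5A.t4 (serine, CGA) at 78 bp, with ranked signals of 124.5 and 73.8. Outside it, the nearest were C53C7.t2 (serine, CGA) at 114 bp and M02F4.t2 (glutamate, CUC) at 118 bp. No member lay between these distances.

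RefSeq gave an isotype for 273 X genes, covering 20 isotypes, and none for 3. A script found an anticodon that reads the annotated amino acid in 269 of them, with 44 different anticodons. Each of the 20 isotypes had at least 1 X gene with a main-list summit, and the 3 undetermined genes had no ranked summit. The classes below are small and were read after their values were seen, so their shares are given as counts.

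Alanine genes had the highest share in the main list. Of 13 X alanine genes 7 had a main-list summit, against 5 of 21 on the autosomes. The F15G9 pair enters this count through a single shared summit. In replicate 1 alanine again had the highest share, with 4 of 13. In replicate 2 it had 3 of 13, a smaller share than phenylalanine (2 of 6) and tyrosine (2 of 8). Beside the F15G9 pair and F34H10.t1, these were T18D3.t1 (98.4), C11E4.t1 (75.7), T07H6.t2 (73.9) and T07H6.t1 (68.2). All 3 X genes with anticodon UGC were among them. T08A9.t1 and C56G3.t1, identical in sequence to F15G9.t2, had no ranked summit within 100 bp in the series list or in either replicate.

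Several other isotypes had shares above the X average. Lysine and serine had 6 of 18 X genes each, against 7 of 28 and 3 of 21 on the autosomes. Leucine had 5 of 17 X genes, against 4 of 22, and cysteine 2 of 7, against 2 of 6. Asparagine had 3 of 6 X genes and 0 of 14 on the autosomes. Aspartate had 5 of 12 X genes, against 2 of 15 on the autosomes, and the 5 include F22F1.t3 with its weak summit of 5.03. Tyrosine had 3 of 8 X genes, against 1 of 11 on the autosomes. Tryptophan had 2 of 5 X genes, against 1 of 7 on the autosomes. One of these tryptophan genes was sup-7, known for mutant alleles that suppress amber stop codons; it had 91.8 in the main list, and its ranked signal was 38.8 in replicate 1 and 60.3 in replicate 2. The other was rtw-5, with 72.2 in the main list, 36.7 in replicate 1 and 44.1 in replicate 2.

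Arginine, the largest X isotype with 27 genes, had a main-list summit at 3, and histidine at 1 of 9. Their autosomal counts were 3 of 17 and 1 of 11. Proline had 4 of 20 X genes, against 7 of 22 on the autosomes, and glutamate had 4 of 23, against 6 of 18. The order of isotypes on X was thus not that of the autosomes, and no isotype difference was tested.

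**Figure D4:**
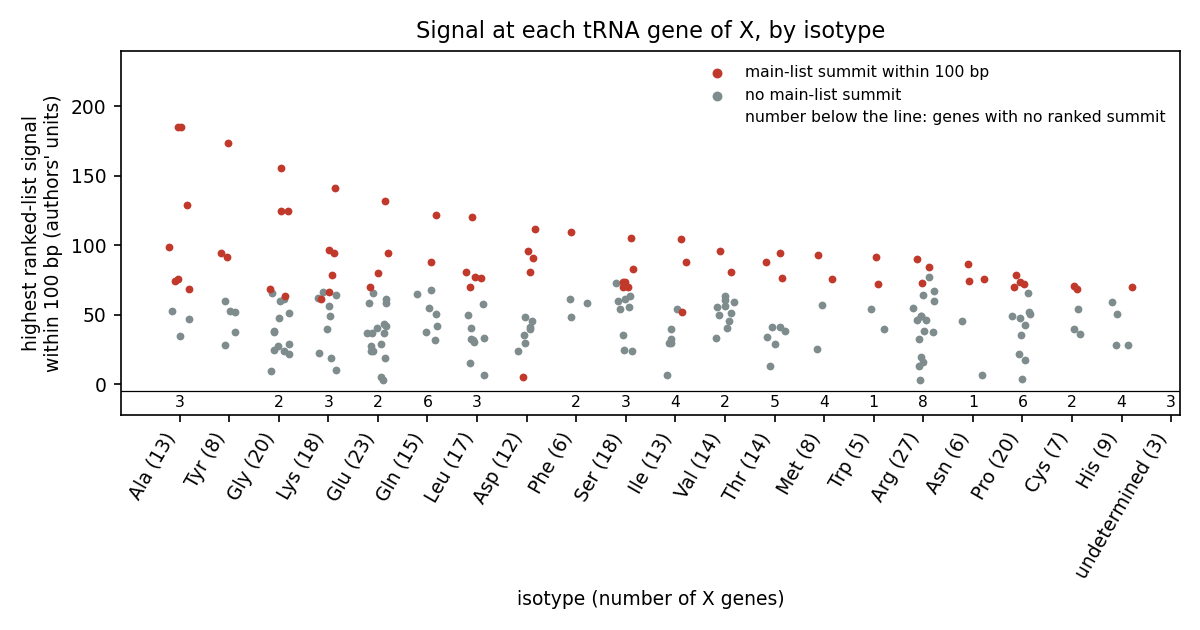
Highest signal (authors' units) within 100 bp in the series ranked list for each X tRNA gene, by isotype in order of the highest value; colour marks genes with a main-list summit and the numbers below the line are genes without a ranked summit. Alanine reaches 184.8 and has 7 of 13 genes in the main list, while histidine reaches 69.7 with 1 of 9.

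Identical genes carried very different signals. X had 20 families in which at least 5 genes share exactly the same sequence, 162 genes in all. Every one of the 20 families had at least 1 gene with a main-list summit, and in none did all genes have one. Within a family the highest ranked signal was 1.95 to 22.2 times the lowest, with a median of 5.11, and 14 families also had a gene with no ranked summit. The widest ranges, 22.2 in aspartate and 18.9 in proline, had their lowest values at F22F1.t3 and Y7A5A.t2 (3.89). Both are weak summits near a stronger summit of nearly the same IDR, at F22F1.t2 and at Y7A5A.t3 (47.5), so these ranges may not be differences between genes. The glycine UCC family, with 11 X genes of 29 in the genome, ran from 23.5 at R04E5.t2 to 155.9 at M02F4.t1. The aspartate GUC family, with 10 of 21, ran from 5.03 at F22F1.t3 to 111.5 at F38G1.t2. The arginine ACG family has all 10 copies on X. It had 84.2 at T06H11.t2 and 15.98 at the neighbouring T06H11.t3, and C03A3.t1 had no ranked summit. The T06H11.t3 summit (chrX:10132912) lay outside that gene, on the side of the T06H11.t2 summit (chrX:10132713). In asparagine the lowest value, 6.30 at ZK154.t5 (chrX:7774031), was likewise near a stronger summit, that of ZK154.t2 (75.8, chrX:7773813). Whether these weaker summits are separate from their neighbours was not tested. The genes named within families were chosen after their values were seen.

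**Figure D5:**
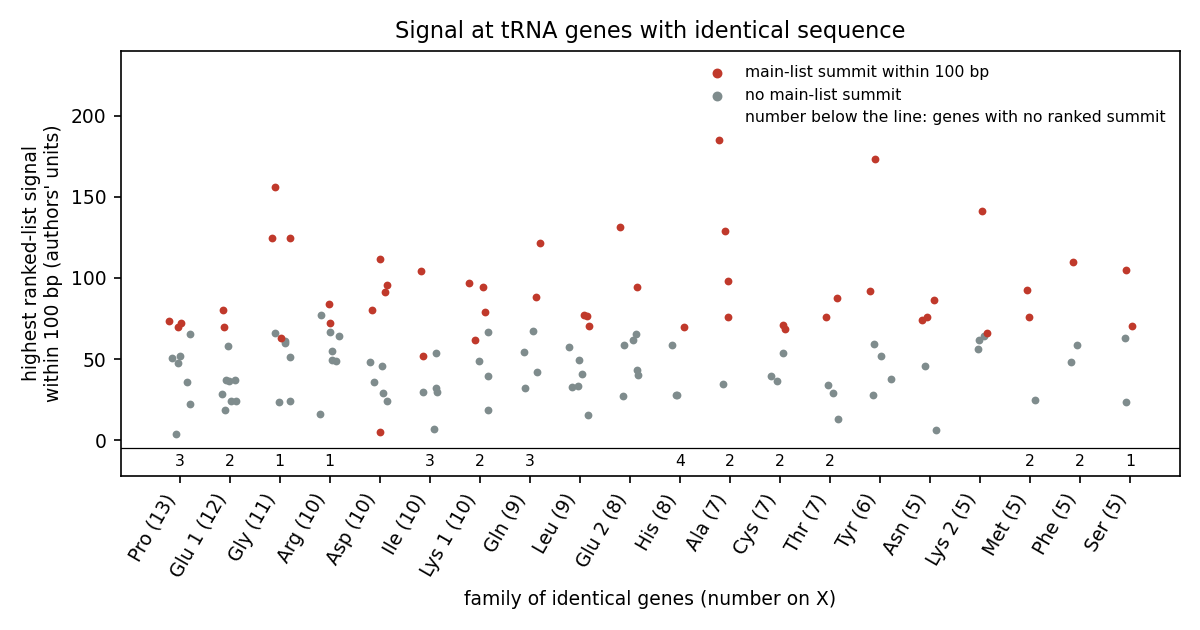
Highest ranked-list signal (authors' units) at X tRNA genes, in 20 families of identical sequence with at least 5 genes on X; colour marks genes with a main-list summit, the numbers below the line are genes without a ranked summit, Glu 1 and Lys 1 have anticodon CUC and CUU, and Glu 2 and Lys 2 have UUC and UUU. In every family the genes spread, from 1.95-fold to 22.2-fold, and the widest spread rests on the weak summit of F22F1.t3.

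The tyrosine family has 6 genes, all on X, with the sequence printed for C02B4.t2. Since the genes themselves do not differ, the 50 bases before each are shown, in lower case and 5′ to 3′ on the gene's strand, in order of their ranked signal.
C02B4.t2: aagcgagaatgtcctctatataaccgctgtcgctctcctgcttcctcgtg
R11.t1: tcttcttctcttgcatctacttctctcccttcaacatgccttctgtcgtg
R11.t4: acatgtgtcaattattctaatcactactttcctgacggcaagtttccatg
F56F10.t1: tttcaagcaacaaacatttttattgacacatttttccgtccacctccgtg
R11.t3: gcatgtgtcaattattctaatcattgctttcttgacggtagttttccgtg
R11.t2: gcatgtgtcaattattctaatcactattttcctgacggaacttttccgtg
R11.t2, R11.t3 and R11.t4 were the same in 42 to 44 of these 50 bases, and every other pair in 13 to 19. C02B4.t2 had a ranked signal of 173.3 and R11.t1 one of 91.8, both with main-list summits. The other 4 had no main-list summit. R11.t4 had 59.5, F56F10.t1 had 51.7, R11.t3 had 37.6 and R11.t2 had 28.1. The 3 genes with like upstream sequence were thus all outside the main list, and so was F56F10.t1. K09A11.t1, a tyrosine gene with a sequence of its own, had a main-list signal of 94.5, with 49.2 in replicate 1 and 49.5 in replicate 2.

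The number of identical copies was set beside the summits. Of the 195 X genes whose sequence occurs at least 5 times in the genome, 59 (30.3%) had a main-list summit, against 42 of 209 (20.1%) such genes on the autosomes. Of X genes with 2 to 4 copies 3 of 26 had one, and of those with a single copy 7 of 55 (12.7%). The corresponding autosomal shares were 21.4% and 15.3%, so the spread between copy classes was smaller there. In the replicates, genes with at least 5 copies had 14 summits (7.18%) in replicate 1 and 28 (14.4%) in replicate 2, and genes with a single copy 3 (5.45%) in each. Among X genes with both boxes the main-list shares were 30.7% and 12.5%. The 7 genes with a single copy were C04A11.t1, K09A11.t1 and rtw-5 above, R11B5.t2 (isoleucine, 88.1), K02A4.t1 (serine, 82.6), C16B8.t2 (proline, 78.2) and Y7A5A.t1 (serine, 73.8).

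Identical copies also limit where reads can be placed, and the labels and file list do not say how the authors placed reads that match several sites. Of all 50-base words in an X gene and its 100 bp flanks, a median of 84.1% occurred at a single place in the genome for genes with a main-list summit. The median was 84.8% for genes with a ranked summit only and 85.5% for genes with none. For genes with a single copy it was 94.8%, and for genes with at least 5 copies 83.9%. The part of read placement in these counts was not tested.

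Genes in clusters were set beside genes standing alone. With gaps of at most 1000 bp joined, 141 X genes stood alone, 78 were in pairs and 57 in clusters of at least 3. A main-list summit was near 43 (30.5%) of the genes alone, 15 (19.2%) of those in pairs and 11 (19.3%) of those in larger clusters. In the larger clusters 36 of 57 genes (63.2%) had a ranked summit, against 113 of 141 (80.1%) for genes alone. In replicate 1 none of the 57 clustered genes had a summit, while 13 of the 141 genes alone had one. In replicate 2 the counts were 4 of 57 and 21 of 141.

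The largest clusters, chosen for their size, had main-list summits at 4 of 22 genes (18.2%). In F28H6, 6 histidine genes of identical sequence lie within 2 kb, and F28H6.t2 had a main-list signal of 69.7. F28H6.t5 had a ranked signal of 28.1 and the other 4 had no ranked summit. There a median of 27.1% of 50-base words occurred at a single place in the genome (range 0 to 78.5). The F22F1 cluster of 6 genes of several isotypes had main-list summits at F22F1.t2 (serine, 70.2) and F22F1.t3. In an intron of ajm-1, a gene of the epithelial apical junction, 5 glutamine genes lie together, and H08J11.t3 had a summit of 88.1. The 5 genes of the K01A12 cluster had none in the main list, with ranked signals up to 53.8.

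Position in a host gene and strand were described in the same way. An intron of a protein-coding gene held 95 X genes, 45 on the opposite strand of the host and 50 on the same strand. Main-list summits were near 15 of 45 (33.3%), 13 of 50 (26%) and, outside introns, 41 of 181 (22.7%). In replicate 2 the order of the first pair was turned round, with 17.8% on the opposite strand and 20% on the same strand, beside 8.29% outside introns. In replicate 1 the shares were 8.89% on the opposite strand, 4% on the same strand and 6.63% outside introns. The conservative list had 11 of 45, 12 of 50 and 40 of 181, so the classes lay closer together there. On the plus strand 41 of 136 genes (30.1%) had a main-list summit, and on the minus strand 28 of 140 (20%). In replicate 1 the strands were the other way, with 5.88% on the plus strand and 7.14% on the minus strand. With X divided into 3 stretches of equal length, the shares were 31.4% in the left, 21.5% in the middle and 25.4% in the right stretch. Of the 12 X genes with an intron of their own, all tyrosine, leucine or isoleucine genes, 4 had a main-list summit and all 12 a ranked summit.

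The X genes with the highest ranked signal and no main-list summit were looked at next. In the series ranked list all 5 had an IDR above 0.01, the limit of the main list, and 3 of them, C18A11.t2, E03E2.t1 and F54F7.t2, were in the conservative list. C18A11.t2 (arginine, ACG) had 76.9, with 32.8 in replicate 1 and 47.1 in replicate 2, and an IDR of 0.0169. E03E2.t1 (serine, GCU), in an intron of the monoamine transporter gene cat-1, had 72.9, with 30.2 in replicate 1 and 43.0 in replicate 2. F54F7.t2 (glutamine, UUG) had 67.5, with 38.9 in replicate 1 and 29.8 in replicate 2. C14F11.t1, identical to C18A11.t2, had 66.9, with 28.3 in replicate 1 and 36.4 in replicate 2. F55F3.t2 (lysine, CUU) had 66.5, with 11.8 in replicate 1 and 56.2 in replicate 2, and was in the list of replicate 2. Their signals exceed the lowest in the main list, and their IDR lay between 0.0117 and 0.0463.

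The internal control elements were present at nearly all X tRNA genes, with or without a summit. A match to the B box (GTTCNANNC on the gene's strand) was found in 268 of 276 X genes (97.1%), 98.6% of those with a main-list summit and 96.6% of the others. Windows of 72 bases on X held it in 1.34%. A match to the A box (TNGNNNANNNG in the gene's first 40 bases) was found in 274 genes (99.3%), with 9.91% in X windows of that length. TTTT within 30 bases after the gene was found in 273 genes (98.9%), with 34.8% in X windows. The AP-2 consensus GCCNNNGGC, a palindrome and so read on both strands, was within 100 bp of 15 genes (5.43%), with 1.14% in X windows of 272 bp. Of these 15 genes, 8 were the 8 X histidine genes of identical sequence, and outside that family 7 of 268 genes (2.61%) had a match. It was near 3 of 69 genes with a main-list summit (4.35%) and 12 of 207 without (5.8%). These are matches to letters, not sites, and they may overlap each other. GC content had a median of 58.3% both with and without a main-list summit.

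Genes whose products make and process tRNA were looked up in the same list, in a promoter window that began 1000 bp before the gene's 5′ end and closed 200 bp after it. Of 13 matched genes for RNA polymerase III transcription, 1 had a main-list summit there, rpc-2, which encodes the second-largest subunit of the polymerase, with a signal of 69.1. Among all protein-coding genes the share was 1.49%. Of 15 matched genes for tRNA processing, modification and export, 1 had a summit, rpr-1, the RNA of RNase P, which trims the 5′ end of tRNA precursors. Its signal was 184.7, close to that of the F15G9 pair, and rpr-1 is itself a short non-coding gene. The ranked list held no summit in the promoters of tftc-1, alkb-8, elpc-1 and elpc-2, and the other 22 had highest signals between 10.7 and 61.3. The share of all protein-coding promoters with a ranked summit is not given here, so these counts have no background.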

How the data were processed

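ChIP-seq peak lists of 2 biological replicates of 1 group were used. Per the labels, chromatin was sonicated and peaks are on ce11; per the deposited file list, each replicate's ranked and thresholded list came from that replicate alone and the series lists from both. Signal is deposited per peak by the authors, on an undefined scale, and was used to describe and rank peaks. The deposited −log10 of the global IDR is the authors' own. Aligner, peak caller and depth are not given in the sources used. From the ranked lists 16 columns of single inputs, which no label ties to a replicate, were not used.

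tRNA genes came from Ensembl release 115, and isotypes, introns and sequences from the RefSeq genome and annotation of WBcel235. Anticodons were found by a script as the middle of a 7-base loop closed by at least 3 of 5 stem pairs, keeping one that reads the annotated amino acid. Copies are exact matches of the gene sequence on either strand. Host introns hold the whole tRNA gene. Distances, clusters and words were computed with Python 3.11.15, numpy 2.4.6, pandas 2.3.3 and scipy 1.17.1. The matching returned the X genes near which simulated summits were placed, a check of the code that did not cover signals or positions. Coordinates are 1-based.

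By rule, the genes named were those in the main list and both replicate lists, the 10 highest in the main list, the 5 highest ranked outside it, the 2 on either side of the distance limit, and pathway genes with a promoter summit. Other genes, named within isotypes, families, clusters, copy classes and lists, were chosen after their values were seen. The members, lists and rules were chosen with earlier results of these data known. The 50-base words were added after the data were seen. No test over samples was possible. Pathway symbols without a match were rpc-9, rpp-1, adat-1, adat-2 and trmt-2. Alternatives were other distances, lists and matching rules.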

Additional observations from a re-analysis of the deposited data

How the results depend on the processing

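No paired analysis was possible because there was 1 group and no test. The list of 1 replicate alone gave 18 to 33 X tRNA genes with a summit (6.52% to 12%), at 16 to 31 distinct summits, and 3.57% to 5.36% of autosomal genes. The difference between X and the autosomes was then 2.95 to 6.6 percentage points. The median thresholded signal was 56.8 to 57.6, the median position 18 to 23.5 bp and the median highest ranked signal 26.7 to 31.5. With the upper 50% of main-list peaks by signal, 41 X genes (14.9%) had a summit, at 39 distinct summits, with a median signal of 94.5, beside 11.6% of autosomal genes and a difference of 3.25 points. With genes whose sequence occurs at a single place, 7 X genes (12.7%) had a summit, at 7 distinct summits, beside 15.3% of autosomal genes. Their median signal was 82.6 and their median position 30 bp. The difference turned to -2.57 points in the main list, but not in the list of either replicate. A distance of 500 bp gave 30.4% of X genes and 20.5% of autosomal genes, a difference of 9.9 points and a median signal of 81.7. A distance of 50 bp gave 17.3% of autosomal genes. A distance of 200 bp moved the median position to 15 bp. Any overlap of peak and gene moved it to 15.5 bp, with a median signal of 81.7. The cause of these changes was not tested, beyond the smaller lists and smaller set of genes that the settings themselves use. In all 8 values were followed, and 33 of their alternatives moved less than the spread between replicates or, for counts, less than 1.5-fold. Another 34 moved further and 1 changed sign. The number of reads is unknown, so what depth limits cannot be stated.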

Other observations

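By anticodon the X genes divided further. Of 16 glycine genes with UCC 4 had a main-list summit and 15 a ranked summit, and of 4 with GCC 1 had a main-list summit. Glutamate genes with UUC had a median highest ranked signal of 59.998 (8 genes) and those with CUC one of 36.7 (13 of 15 genes with a ranked summit). Arginine genes with ACG had 2 of 13 in the main list and a median of 64.1 (9 genes), while the 7 with UCG had none and a median of 35.3 (4 genes). Valine genes with AAC had 2 of 10 in the main list and those with CAC or UAC 0 of 2 each. All are descriptions of 1 series list, read after the values were seen.

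Of the 7 X genes in a replicate list and not in the main list, R01H5.t1 (threonine, UGU) had 73.1 in replicate 2 and no ranked summit in replicate 1 or in the series list. W02H3.t1 (leucine, UAG) had 46.6 in replicate 1 and no ranked summit in replicate 2.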
